A study of Homo sapiens with 12 samples.

Results

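Peaks of ac4C, the RNA modification N4-acetylcytidine, in which a cytidine base carries an acetyl group, were examined on 9 human genes that write, erase or read DNA methylation, out of 20037 protein-coding genes in the annotation. The members were DNMT1, DNMT3A, DNMT3B, UHRF1, HELLS, TET1, TET2, TET3 and MBD2, and every peak that overlapped a member's RefSeq gene span by at least 1 bp was taken. That gave 22 of the 28047 peaks of the NAT10 knockdown list and 30 of the 34365 peaks of the control list. The study used RBE, a human intrahepatic cholangiocarcinoma cell line, carrying by lentivirus either a short hairpin RNA against NAT10 (sh-NAT10), the RNA cytidine acetyltransferase, or a control hairpin (sh-NC). Each arm had 3 immunoprecipitates with an ac4C antibody and 3 inputs, 12 libraries in all, from cells that were selected with puromycin and expanded from resistant colonies. No untransduced cells were analysed here, and the labels do not say whether the replicates were separate cultures.

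One list of peaks per arm was analysed, with no list per replicate, so the spread between replicates is not measured and the arms are compared without p-values. Total read depth is unknown, and a peak that is absent from a list can reflect an unmodified site, scarce RNA or too few reads. Fewer cells carrying an RNA and less of it per cell cannot be told apart in such bulk samples. Each peak carries a score given by the authors on an unstated scale, most of them above a lower edge at 10, and scores are given only to describe each peak within its own list, also where those of overlapping peaks stand side by side. The cell line label was checked against markers of bile duct cells. Peaks lay on 3 of 4 cholangiocyte markers (KRT7, KRT19 and SOX9, 20 knockdown and 21 control peaks in all, with EPCAM at 0), and on 0 and 1 of 3 hepatocyte markers (ALB, APOA1 and TTR). The neuronal markers PCLO, SCN2A, MAP2 and SNAP25 together had 6 knockdown peaks and 89 control peaks, with MAP2 at 0 in the knockdown list, and the part of that difference between the lists in the counts below was not tested.

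DNA methylation at CpG sites is set down by DNMT3A and DNMT3B and copied onto the new strand after replication by DNMT1, which UHRF1 recruits to half-methylated sites and HELLS, a chromatin remodeller, helps to reach compact chromatin. TET enzymes oxidise the methyl group as a step towards its removal, and MBD2 binds methylated CpG and brings the NuRD deacetylase complex. DNA methylation is a main means of silencing transposable elements, and intrahepatic cholangiocarcinoma is known for mutations of IDH1 and IDH2, whose altered enzymes make a metabolite that inhibits TET proteins.

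Peaks were found on 7 of the 9 members in the knockdown list and on 8 of 9 in the control list, against 42.1% and 47.2% of all protein-coding genes. The member spans run from 47.0 to 151.9 kb, and these shares were not matched for gene length or expression. The members had 73.3% as many knockdown as control peaks, and the whole lists 81.6%. Of the 8 members with any peak, DNMT3A, DNMT3B, UHRF1, TET2 and MBD2 had fewer knockdown than control peaks, DNMT1 and TET3 had equal numbers, and HELLS had more. Among all protein-coding genes with any peak, 46.1% had fewer, 20.6% had as many and 33.3% had more. Of the 8 members with a control peak, only DNMT3B had no knockdown peak, against 26.3% of all protein-coding genes with a control peak, and no member had a knockdown peak only, against 17.4% of genes with a knockdown peak. Genes with the same number of control peaks as each of these 8 members lacked a knockdown peak in 22.7% of cases on average. With the control list cut by score to the length of the knockdown list, the order of members with a peak turned, to 7 in the knockdown list and 6 in the control list. DNMT3B then had no control peak, HELLS had knockdown peaks only, and no member had control peaks only.

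**Figure D1:**
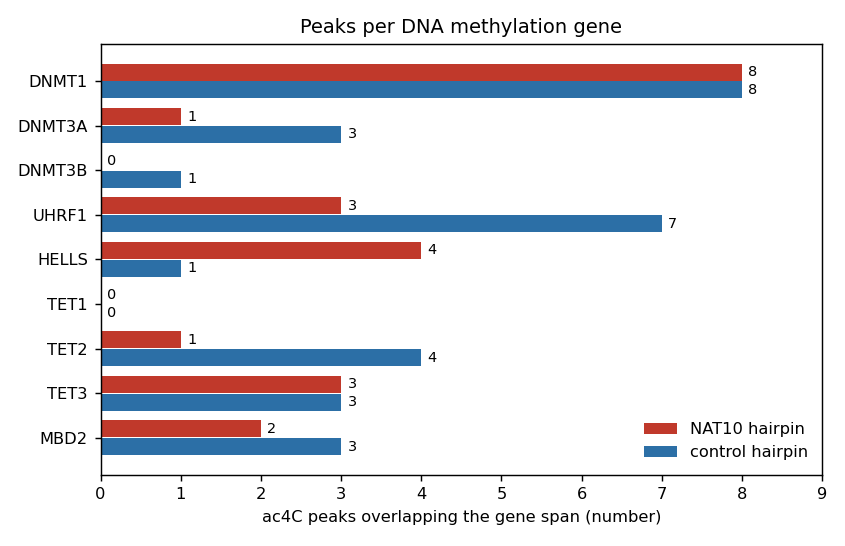
Number of ac4C peaks overlapping each gene span, with the NAT10 hairpin list above and the control hairpin list below for each gene. DNMT1 had 8 peaks in both lists, UHRF1 3 and 7, and HELLS 4 and 1, while TET1 had 0 in both.

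DNMT1, the maintenance methyltransferase (chromosome 19, 10133346 to 10194953 in hg38, minus strand), carried the most peaks of the set, 8 in the knockdown list and 8 in the control list. Among 243 other protein-coding genes with 8 control peaks, the median number of knockdown peaks was 6 (interquartile range 3 to 8), and 55 of them had more than DNMT1. Of its knockdown peaks 6 overlapped a control peak on the same strand, and of its control peaks 5 overlapped a knockdown peak. All 16 peaks lay between 65.9% and 95.8% of the way from the start to the end of the gene.

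Near the end of DNMT1, a 420 bp peak from 10140779 to 10141198 was listed with the same boundaries in both arms, with a score of 19.8 in the knockdown list and 15.0 in the control list. A 100 bp peak from 10140254 to 10140353 was likewise identical, with scores of 13.4 and 15.3. These 2 sites stand next to each other, with midpoints 7642 and 6957 bp before the end of the gene. Closer to the end, a 393 bp knockdown peak from 10135742 to 10136134 (score 12.8) held a 293 bp control peak with the same right boundary (score 12.3).

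A 963 bp control peak from 10136185 to 10137147 (score 13.9) was met by 2 short knockdown peaks, 1 at either edge, with 25 bp of overlap each and scores of 10.8 and 15.7. A site ending at position 10154393, 65.9% of the way along the gene, had a 100 bp knockdown peak (score 10.8) and a 50 bp control peak (score 12.3). Equal counts on DNMT1 therefore did not mean equal positions. In the knockdown list alone stood a 420 bp peak from 10138109 to 10138528 (score 14.8) and a 2484 bp peak from 10146412 to 10148895 (score 13.0), 961 bp and 5213 bp from the nearest control peak. The control list alone held 3 peaks between 10139654 and 10140153, with scores of 14.1, 13.6 and 11.3. They lay 425, 175 and 100 bp from the nearest knockdown peak.

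DNMT3A and DNMT3B, which methylate DNA de novo, had few peaks and no site in common between the arms. DNMT3A (chromosome 2, 25227874 to 25342590, minus strand) had 1 knockdown peak, of 956 bp from 25240720 to 25241675 with a score of 12.8. Its 3 control peaks had scores of 12.0, 10.2 and 11.1, and the nearest of them lay 6615 bp from the knockdown peak. The control peak from 25227855 to 25227929 straddled the end of the gene, with 56 of its 75 bp inside. DNMT3B (chromosome 20, 32762385 to 32809356, plus strand) had 0 knockdown peaks and 1 control peak, 874 bp wide from 32799287 to 32800160, whose score of 10.2 was near the lower edge of the list. Among 1168 other genes with 3 control peaks the median was 2 knockdown peaks, and 242 had fewer than DNMT3A. Of 3351 other genes with 1 control peak, 43.1% had no knockdown peak, as DNMT3B did.

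**Figure D2:**
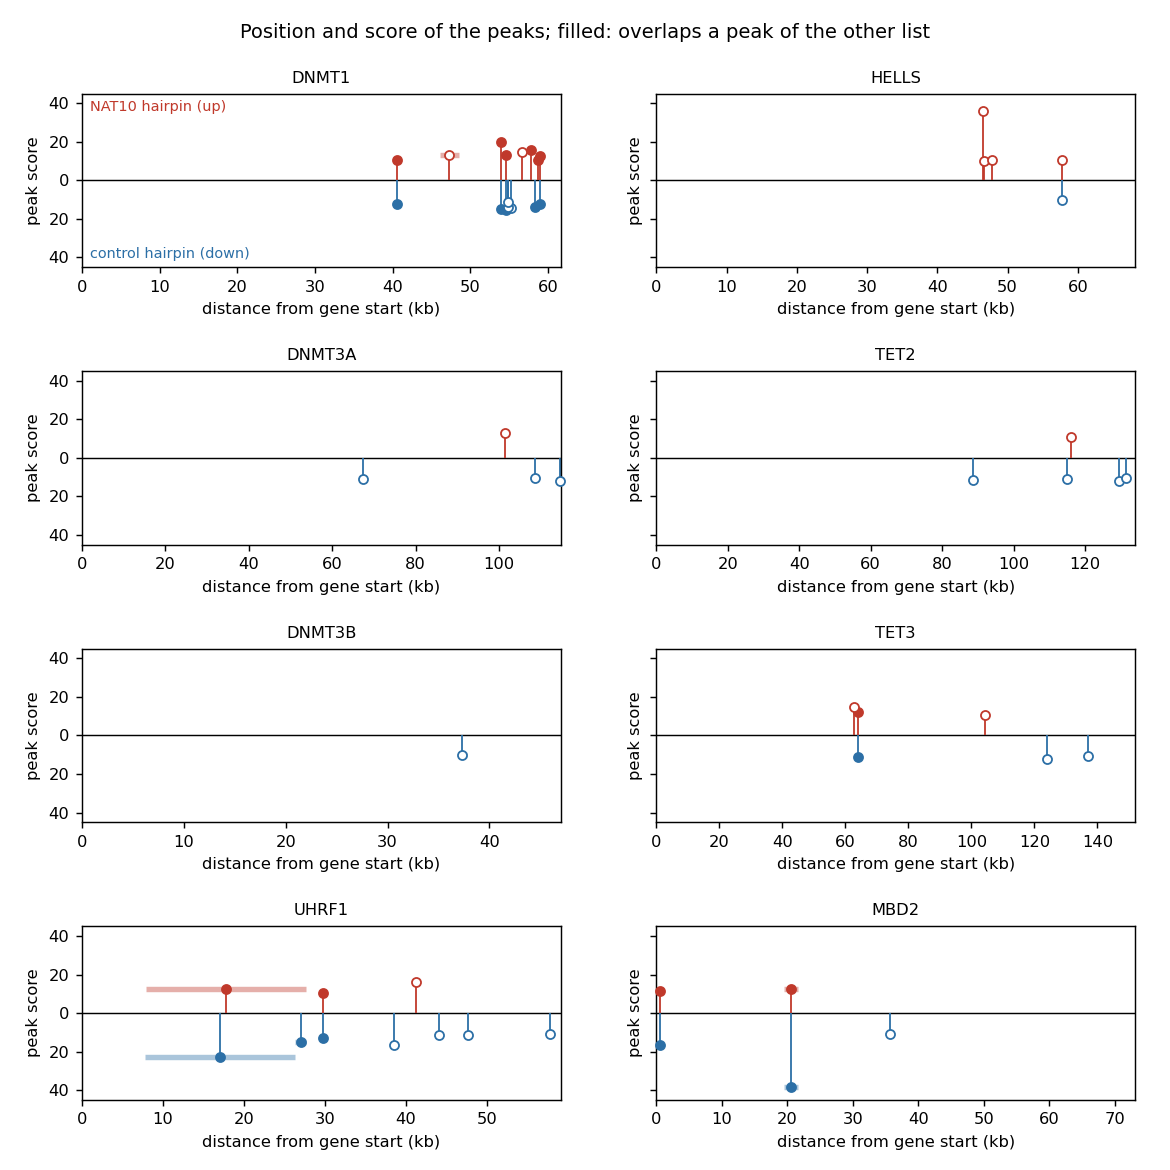
Distance of each peak's midpoint from the gene start in kb (x axis) and its score (y axis), for the NAT10 hairpin list pointing up and the control hairpin list pointing down, with pale bars for peak width and filled points for peaks that overlap a peak of the other list. The peaks of DNMT1 crowd the far end of the gene in both lists, while none of those on HELLS, TET2, DNMT3A and DNMT3B overlap between lists.

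UHRF1, the reader of half-methylated DNA that recruits DNMT1 (chromosome 19, 4903080 to 4962154, plus strand), had 3 knockdown peaks and 7 control peaks. Both lists had a wide span in the first 50% of the gene, 19797 bp from 4910974 to 4930770 in the knockdown list (score 12.3) and 18408 bp from 4910924 to 4929331 in the control list (score 22.7). Each peak is written as 1 block, so such a span can include introns, and this one also overlaps the gene ARRDC5. The control list had a second peak from 4929357 to 4930770 (score 14.9) that ended at the same base as the knockdown span. Downstream, a 25 bp knockdown peak (score 10.5) lay inside a 175 bp control peak from 4932760 to 4932934 (score 12.7).

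The remaining UHRF1 peaks had no counterpart. They were a 162 bp knockdown peak from 4944197 to 4944358 (score 15.9), 2450 bp from the nearest control peak, and 4 control peaks with scores of 16.7, 11.4, 11.2 and 11.0. The last of these, from 4960835 to 4960909, was the only UHRF1 peak in the last 10% of the gene. Of 306 other protein-coding genes with 7 control peaks, 101 had fewer knockdown peaks than UHRF1, 23 had as many and 182 had more, around a median of 5 (interquartile range 2 to 7).

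HELLS, the remodeller whose loss in people causes a syndrome of undermethylated repeat DNA (chromosome 10, 94545788 to 94613905, plus strand), was the only member with more peaks in the knockdown list, 4 against 1. The highest score of any knockdown peak on the 9 genes, 35.7, belonged to a 100 bp peak from 94592244 to 94592343, which ranked at percentile 95.1 of its list. The nearest control peak lay 11179 bp away. A 25 bp peak (score 10.2) and a 50 bp peak (score 10.4) followed downstream, both near the lower edge.

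The fourth HELLS peak in the knockdown list, from 94603573 to 94603622 (score 10.7), and the single control peak, from 94603523 to 94603547 (score 10.4), were 25 bp apart and so did not count as shared. Among 3351 other genes with 1 control peak, 3220 had fewer knockdown peaks than HELLS, 81 had as many and 50 had more. With scores of 12 or more, a setting chosen after seeing the data, HELLS had 1 knockdown and 0 control peaks.

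The TET dioxygenases differed among themselves. TET1 (chromosome 10, 68560337 to 68694487, plus strand) had no peak in either list, and the nearest peaks on its strand, on CCAR1, lay 47913 bp past its end in the knockdown list and 52704 bp past it in the control list. TET2 (chromosome 4, 105145875 to 105279803, plus strand) had 1 knockdown peak, from 105261762 to 105261836 (score 10.6), and 4 control peaks with scores of 11.3, 10.8, 11.7 and 10.4. The knockdown peak began at the base after the end of a 2014 bp control peak, from 105259748 to 105261761, so these 2 peaks touch without overlapping. A pair of control peaks stood at 96.7% and 98.1% of the gene, where the knockdown list had none. All 5 peaks also overlap the span of TET2-AS1, an antisense gene, but they lie on the strand of TET2. Of 815 other genes with 4 control peaks, 116 had no knockdown peak, 113 had 1 and 586 had more.

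TET3 (chromosome 2, 73983631 to 74135498, plus strand) had 3 peaks in both lists, of which 1 was shared. That site was a 125 bp knockdown peak from 74047653 to 74047777 (score 12.0) around a 75 bp control peak (score 11.4), 42.2% of the way along the gene. In the knockdown list a 100 bp peak (score 14.9) lay 1300 bp from the control peak, and another (score 10.7) stood at 68.7% of the gene. The other 2 control peaks, with scores of 12.2 and 10.6, lay further on, at 81.7% and 90.3%. The last of them also overlaps FNBP1P1, a pseudogene, and without it the knockdown list has more peaks on TET3.

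MBD2, the methyl-CpG reader (chromosome 18, 54151606 to 54224669, minus strand), had 2 knockdown peaks and 3 control peaks, and both knockdown peaks had a counterpart. A 2046 bp peak from 54203103 to 54205148 had identical boundaries in the 2 lists. Its score was 12.3 in the knockdown list (percentile 48.8) and 38.5 in the control list (percentile 96.9), the highest score of any control peak on the 9 genes. How far the scores of the 2 lists can be set against each other is unknown, so these percentiles describe each list alone. A 50 bp peak near the start of the gene was centred 585 bp from the start in the knockdown list (score 11.3) and 610 bp from it in the control list (score 16.4), with 25 bp in common. It was the only site of any member in the first 10% of a gene. The third control peak, of 75 bp, had a score of 10.7.

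Over all members, 50% of the 22 knockdown peaks (11, 95% Wilson interval 30.7 to 69.3) overlapped a control peak, against 54.9% of knockdown peaks on protein-coding genes in general. A knockdown peak was overlapped by 36.7% of the 30 control peaks (11, interval 21.9 to 54.5), against 45.3% in general. Both intervals hold the general share. They cover counting error only and treat peaks as independent, which peaks of 1 gene are not. Of the shared sites, 6 knockdown peaks lay on DNMT1, 2 on UHRF1, 2 on MBD2 and 1 on TET3. Boundaries were identical for 3 peaks, 13.6% of knockdown and 10.0% of control peaks on members, against 20.0% and 16.3% of the whole lists. Of the peaks without a counterpart, 8 of 11 knockdown and 14 of 19 control peaks lay over 1000 bp from the nearest peak of the other list on that strand. The same share was not taken over the whole lists, so these distances are not shown to be particular to the members.

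All 22 knockdown and all 30 control peaks lay on the strand of their gene, against 90.7% and 90.5% of peaks on protein-coding genes with a known strand. The second 50% of the gene held 17 knockdown peaks (77.3%, interval 56.6 to 89.9) and 24 control peaks (80.0%, interval 62.7 to 90.5), against 65.1% and 68.4% of peaks on protein-coding genes. In the last 10% lay 4 knockdown peaks (18.2%), all of them on DNMT1, and 8 control peaks (26.7%), on DNMT1, DNMT3A, UHRF1, TET2 and TET3, close to the 21.4% and 27.7% of peaks on protein-coding genes. No member had a peak in the window from 250 bases before to 50 bases after a listed start, and 3.04% of 15842 protein-coding genes had one in the knockdown list and 3.83% in the control list.

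Peaks on the members had median scores close to those of the whole lists and smaller median widths. The median score was 12.3 in the knockdown list and 11.9 in the control list, against 12.4 and 12.2 over all peaks. Median widths were 100 bp and 75 bp, against 168 bp and 175 bp. Scores between 10 and 11 were carried by 8 knockdown peaks (36.4%, interval 19.7 to 57.0) and 7 control peaks (23.3%, interval 11.8 to 40.9), against 20.6% and 21.8% of the lists. Only 1 knockdown peak, on HELLS, and 2 control peaks, on UHRF1 and MBD2, reached a score of 20, against 14.9% and 12.3% of all peaks.

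**Figure D3:**
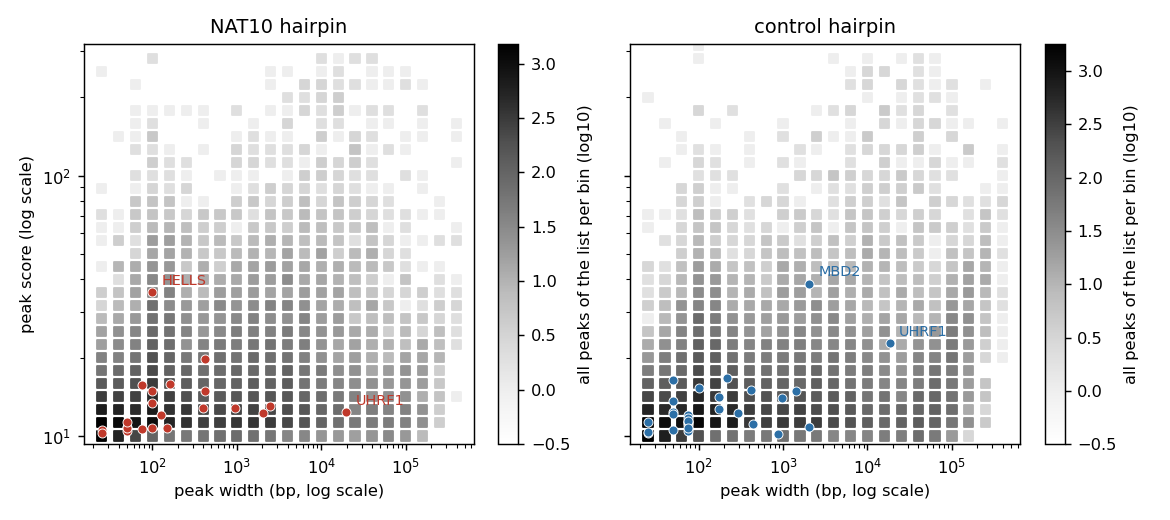
Width (x axis, bp) and score (y axis) of the member peaks as coloured points, over all peaks of the same list with scores from 10 to 300 in grey, both axes on log scales, for the NAT10 hairpin list (left) and the control hairpin list (right). Most member peaks sit in the crowded lower left corner, and the named points are those with a score of 20 or more or wider than 10 kb.

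The counts are low enough for the treatment of single peaks to turn a gene's direction. Using only peaks inside a single gene takes away every TET2 peak and leaves TET3 with more knockdown peaks, as lists of equal length also do. With peaks up to 1000 bp only, DNMT1 has fewer knockdown peaks, and with neighbouring peaks merged within 100 bp it has more. UHRF1 and MBD2 had fewer knockdown peaks, and HELLS more, in each of the 8 other settings tried for the lists and the gene assignment. At a score of 12 or more, DNMT3A has 1 knockdown and 0 control peaks, and DNMT3B and TET2 have none in either list.

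The 1 bp rule left no member peak in doubt except the one at the end of DNMT3A. Outside the gene spans, the nearest peak on the same strand was 6242 bp from DNMT1 in the control list, and 7059 bp from UHRF1, on KDM4B, in the knockdown list. Every other member's nearest outside peak was further away in both lists.

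**Figure D4:**
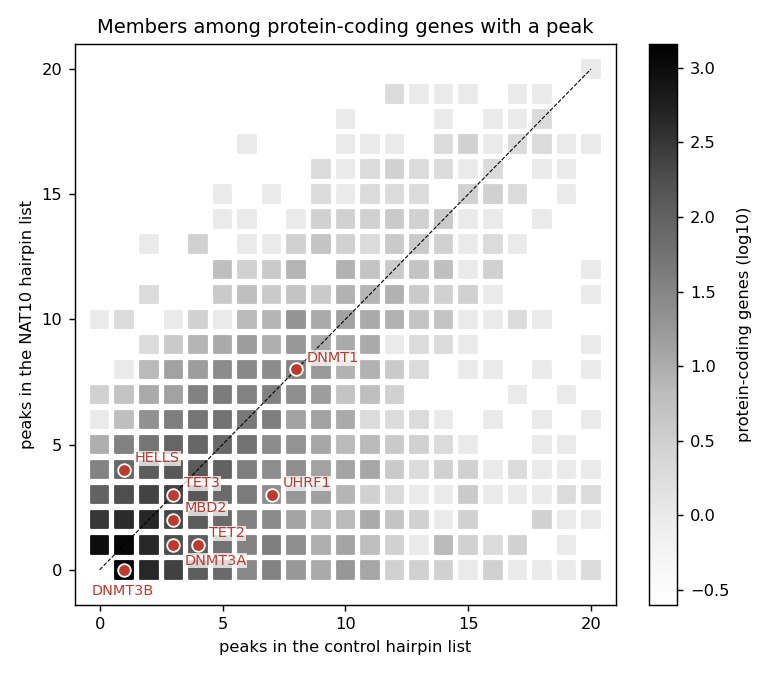
Peaks per protein-coding gene in the NAT10 hairpin list (y axis) and the control hairpin list (x axis), up to 20 in either, with grey squares for the number of genes (log10) and red points for the members with a peak. DNMT1 and TET3 lie on the dashed line of equal counts, HELLS above it and the other 5 below it.

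The other genes of DNA methylation were described from 6 lists with 41 genes. Peaks lay on 28 of them in the knockdown list and on 28 in the control list, against 42.1% and 47.2% of all protein-coding genes. Both lists had a peak on 25 of them, with 104 knockdown and 123 control peaks in all. There were fewer knockdown than control peaks on 15 genes, as many on 5 and more on 11, so of the 31 with a peak neither direction held nearly all. Among all protein-coding genes with any peak, 46.1% had fewer, 20.6% had as many and 33.3% had more, which is near this split. Without peaks that lie in several genes, a setting added after seeing the data, 16 genes had fewer, 3 had as many and 10 had more. CXXC1, MTR and MTRR had knockdown peaks only, 3 of 28 genes, against 17.4% of all protein-coding genes with a knockdown peak. CXXC4, TDG and MAT2B had control peaks only, 3 of 28 genes, against 26.3% of all protein-coding genes with a control peak. Apart from MTRR these genes were named after their values were seen.

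Among the partners of maintenance methylation, 6 of 8 genes had peaks in both lists, 14 in each. LIG1, the ligase that joins new DNA fragments, had 6 knockdown and 5 control peaks, or 3 and 4 without those that also lie in another gene. USP7, a deubiquitinase that stabilises UHRF1 and DNMT1, had 2 and 3, and PCNA, the sliding clamp to which DNMT1 binds, had 2 in both, or 1 and 2 without such peaks. All 9 genes listed as other methyl-CpG readers had peaks in both lists, 37 and 47 in all. The list is a grouping by name, and whether each protein binds methylated CpG was not tested. MBD6 had 10 knockdown and 6 control peaks, MBD5 had 4 and 9, and MBD3, the NuRD subunit most like MBD2, had 6 and 7. Fewer knockdown peaks were found on 6 of these genes and more on 2. Every peak on ZBTB33, 1 knockdown and 7 control, also lay in another gene. Without such peaks ZBTB33 had 0 in both lists, and 5 genes of this list had fewer, 1 as many and 2 more.

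Proteins with a CXXC domain bind unmethylated CpG, and 5 of 6 such genes had a peak in each list, with 29 peaks in either list. FBXL19 had 10 in both, KDM2A, a histone demethylase, had 11 knockdown and 7 control peaks, and its paralog KDM2B had 3 and 8. In the demethylation and repair list, 4 of 9 genes had knockdown peaks and 5 of 9 control peaks, 10 and 19 in all. The only peak on NEIL1 in each list also lay in another gene. OGT, the sugar transferase that binds TET proteins, had 3 knockdown and 10 control peaks. IDH1 had 2 and 4, and IDH2 had 4 and 3. TDG, the glycosylase that removes the oxidised bases made by TET, had 0 and 1.

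For the supply of methyl groups, 4 of 6 genes had knockdown peaks and 3 of 6 control peaks, 14 in each list. MAT2A, which makes the methyl donor S-adenosylmethionine, had 5 knockdown and 9 control peaks. AHCY, which clears what remains of that donor after methyl transfer, had 5 and 4, and MTRR had 3 and 0. DNMT3L, TRDMT1 and ZFP57, the last list, had no peak in either arm.

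**Figure D5:**
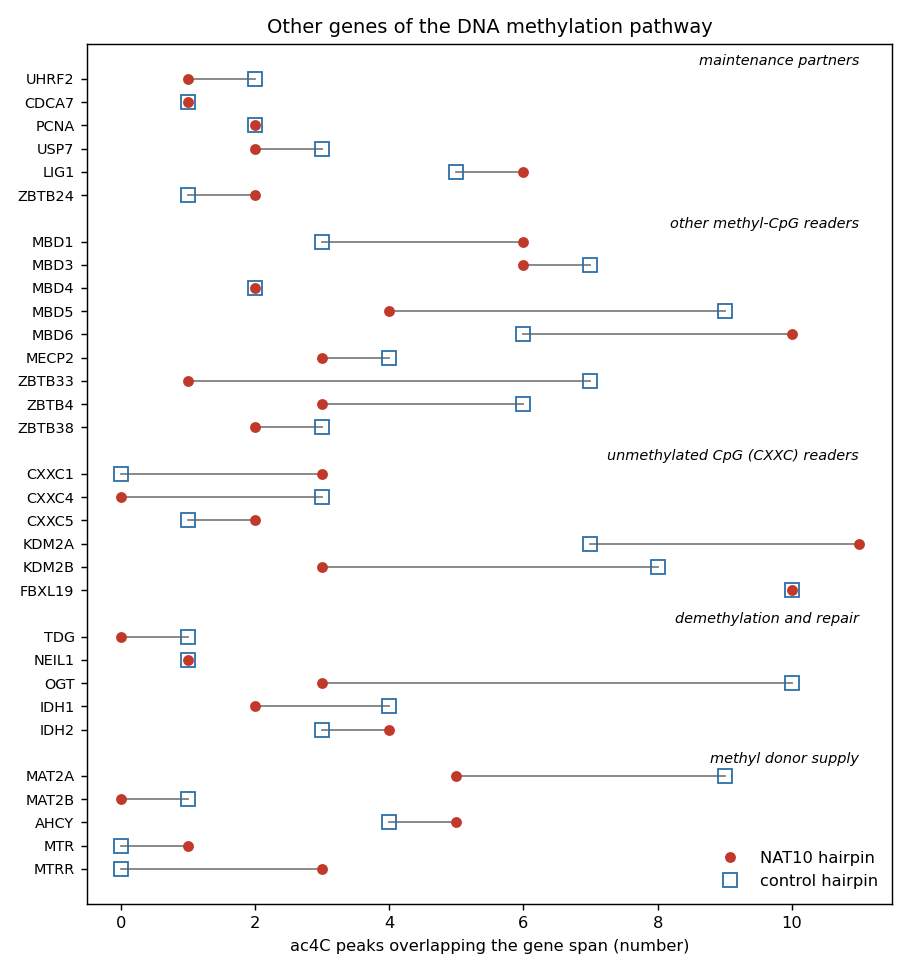
Number of peaks (x axis) on the 31 other DNA methylation genes with any peak, with red points for the NAT10 hairpin list and open blue squares for the control hairpin list, joined by a line. The points lie left of the squares for 15 genes, on them for 5 and right of them for 11.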

How the data were processed

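The deposited files hold the peaks of each arm in 12 columns without a header, and the score of each peak is the authors' own, with no scale given in the sources used here. The submitters' processing notes name Bowtie2 2.4.1, fastp 0.20.1 and the build hg38. The caller, the threshold, any use of inputs and any pooling of libraries are steps not given in the sources used here. One file was identified as the control by its name, which occurs only in titles of control libraries, and the other list was assigned to the knockdown arm by elimination.

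All 9 members matched RefSeq (GRCh38.p14) by symbol. That table gives gene spans, and strands came from its listed starts, so exons, untranslated regions and the sequence under peaks were not analysed here. Peaks overlapping a span by 1 bp or more on either strand were counted. A counterpart was a peak of the other list overlapping by 1 bp or more on the same strand (bedtools 2.31.1). Computation was in Python 3.11.15 with pandas 2.3.3, SciPy 1.17.1, NumPy 2.4.6 and, for plots, matplotlib 3.10.9. The overlap procedures found all shifted copies of 2000 control peaks and the peaks planted in 200 protein-coding genes. Whether they report overlaps that are not there was not tested. The members, the lists and the markers were chosen with earlier results of these data known. The text names all members and, of each other list, up to 3 genes with the most peaks over both lists. CXXC1, CXXC4, MTR, MAT2B, TDG, NEIL1 and ZBTB33 were named outside this rule, after their values were seen. Cell type markers are named apart from it. One item is not reported here.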

Additional observations from a re-analysis of the deposited data

How the results depend on the processing

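With scores of 20 or more, the members had 1 knockdown and 2 control peaks, on 1 and 2 genes, and 0% of either were shared. With 12 or more, a setting chosen after seeing the data, they had 12 and 14, on 6 and 4 members, so that more members had a knockdown than a control peak. Lists of equal length turned that order too, with 7 and 6 members. The remaining alternatives kept the total peaks on the members and the number of members with a peak within 1.5 times, and the shares inside their intervals. Counts of single members could move further, such as DNMT1 control peaks from 8 to 5 after merging. These alternatives were scores of 10 or more, widths up to 1000 bp, equal list lengths, single-gene assignment, gene strand, merging within 100 bp and other definitions of a counterpart. Scores of 10 or more and gene strand removed no member peak, so they could not change the counts on the members. The share of protein-coding genes with a control peak that lack a knockdown peak was 47.2% at a score of 20, 34.5% at 12, 27.5% at 10, 31.9% for narrow peaks, 24.1% with lists of equal length and 28.9% with single-gene assignment, and part of this follows from fewer peaks being counted. Depth is unknown and limits every absent peak. No paired analysis was possible because no list separates the replicates, and for the same reason none could be left out.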
